A study of Mus musculus with 12 samples.

Results

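The expression of 10 germline genes was followed across 12 bulk RNA sequencing libraries from mouse cultures of primordial germ cell-like cells (PGCLCs), an in vitro counterpart of the earliest germline. They are the RNA-binding protein gene Dazl, the RNA helicase gene Ddx4 and the transposon defence genes Tex19.1, Mael, Asz1, Tdrd1, Tdrkh, Mov10l1, Piwil2 and Gtsf1. The 10 genes were listed by name, with earlier results of these libraries known. All 10 were found among the 35975 genes in the files, and all 10 passed the filter on low counts that left 16178 genes. E14TG2a embryonic stem cells (E14), grown in 2i medium with vitamin C, were primed as epiblast-like cells (EpiLCs) and then aggregated in a cytokine mix (LIF, EGF, SCF, BMP8 and BMP4) that induces PGCLCs, for 4 days. There were 3 biological replicates per group, the groups being TKO cells primed for 40, 48 or 96 h (TKO_40h, TKO_48h, TKO_96h) and wild-type cells primed for 40 h (WT_40h). TKO is known from the study to mean knockout of Dnmt1, Dnmt3a and Dnmt3b, the DNA methyltransferase genes. WT cells were sequenced at 1 priming time, and the sample titles name no separate clones, so that the knockouts and any other difference between the WT and TKO lines cannot be told apart. Aggregates were dissociated for flow cytometry, and no label states if the pellets used for RNA had been sorted.

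In germ cells, Piwi proteins bind small RNAs called piRNAs that match transposon transcripts. Piwi proteins cut those transcripts and, in fetal male germ cells, direct DNA methylation to the transposons. The helicase MOV10L1 brings precursor RNA into the pathway, TDRKH and its partners trim it on the surface of mitochondria, where ASZ1 holds the assembly, and tudor proteins such as TDRD1 gather Piwi proteins by their methylated arginines. DAZL and DDX4 bind or unwind germ cell mRNAs and appear as germ cells reach the gonad. Dazl, Tex19.1 and several other genes of this group are known as genes whose promoters are silenced by DNA methylation in somatic cells of the mouse, which is why their behaviour in cells without methyltransferases is of interest.

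The promoters of 9 of the 10 genes were present in a table of 32851 mouse promoters from RefSeq (GRCm38.p6, 250 bases before to 50 bases after the annotated start); Piwil2 was the gene without an entry. The promoters of Dazl and Tex19.1, which differed between the genotypes, and of Ddx4 and Mov10l1, which did not pass the test there, are shown 5′ to 3′ on the strand of the gene, with every CpG, the target of the methyltransferases, in capitals. They lie at chr17:50293571-50293870 (minus strand, Dazl), chr11:121145893-121146192 (plus, Tex19.1), chr13:112652261-112652560 (minus, Ddx4) and chr15:88982744-88983043 (plus, Mov10l1).
Dazl: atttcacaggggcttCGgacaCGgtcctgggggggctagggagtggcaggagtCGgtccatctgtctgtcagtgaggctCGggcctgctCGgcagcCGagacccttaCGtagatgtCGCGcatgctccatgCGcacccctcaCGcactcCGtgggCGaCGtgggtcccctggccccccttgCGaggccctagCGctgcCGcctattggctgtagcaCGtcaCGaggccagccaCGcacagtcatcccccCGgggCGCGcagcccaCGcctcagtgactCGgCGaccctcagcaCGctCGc
Tex19.1: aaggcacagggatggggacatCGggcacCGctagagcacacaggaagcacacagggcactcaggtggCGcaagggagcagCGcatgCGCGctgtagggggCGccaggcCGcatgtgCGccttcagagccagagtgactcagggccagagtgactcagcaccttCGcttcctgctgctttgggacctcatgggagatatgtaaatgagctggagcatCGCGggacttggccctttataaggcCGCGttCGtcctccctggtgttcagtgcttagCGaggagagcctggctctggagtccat
Ddx4: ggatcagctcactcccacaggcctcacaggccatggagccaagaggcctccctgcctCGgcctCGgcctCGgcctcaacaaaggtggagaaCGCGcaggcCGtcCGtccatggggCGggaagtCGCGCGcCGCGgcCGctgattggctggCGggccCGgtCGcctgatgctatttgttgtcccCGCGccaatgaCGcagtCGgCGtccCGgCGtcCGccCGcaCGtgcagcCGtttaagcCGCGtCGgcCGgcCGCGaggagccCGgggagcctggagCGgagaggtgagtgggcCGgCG
Mov10l1: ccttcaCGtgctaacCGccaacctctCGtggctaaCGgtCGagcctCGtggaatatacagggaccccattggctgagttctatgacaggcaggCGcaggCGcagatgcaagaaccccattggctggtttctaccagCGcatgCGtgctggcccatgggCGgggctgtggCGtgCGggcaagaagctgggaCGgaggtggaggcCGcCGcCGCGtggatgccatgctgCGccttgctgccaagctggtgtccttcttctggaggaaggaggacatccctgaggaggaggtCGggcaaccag
The Dazl window held 28 CpGs, more than 85.8% of all promoters, and the Tex19.1 window 16, more than 67%. The Ddx4 window held 38 CpGs, more than 95%, and the Mov10l1 window 20, more than 73.5%. The median promoter held 7. All 4 windows are thus richer in CpG than the median promoter, whether or not the gene differed between TKO_40h and WT_40h. Of the other genes, Mael had 24 CpGs, Tdrkh 25, Asz1 17 and Gtsf1 13, while the 3 annotated Tdrd1 starts had 20, 25 and 3. The word GCGGGAA, an E2F-type motif, searched on both strands, occurred in the Ddx4 window alone among the 9 genes and in 4.6% of all promoters. The E-box CACGTG, which is its own reverse complement, occurred in the windows of Ddx4, Mov10l1, Mael and 2 of the Tdrd1 starts, and in 7.15% of all promoters. In the Ddx4 window the 2 matches did not overlap; that window is placed on the RefSeq start, which lies downstream of the start of the Ddx4 transcript counted here. Both words are motifs bound by factors of a complex, PRC1.6, known to silence germline genes; a match is only a match of letters.

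Each library held 6570180 to 9114128 estimated counts. TKO_48h replicate 1 stood apart, with 14.6% of its counts in 10 genes, against 9.2 to 12.7% elsewhere, and the lowest number of genes with 10 counts, 13562. On the first principal component of log2 CPM (a count as its share of the library, per equal total), with 19.9% of the variance, the TKO_96h libraries lay between 67.6 and 81.1 and all others between -60.8 and -10.4. The targeted genes were lower in TKO but still counted: Dnmt1 averaged 86.9 to 144 CPM over the 3 TKO groups and 439 CPM in WT_40h, Dnmt3a 35 to 64.3 and 406 CPM, and Dnmt3b 18.3 to 47.9 and 185 CPM. All 11 markers on a list of PGC and pluripotency genes were counted in every library, and their summed level was 1220 to 1290 CPM in TKO_40h, 1320 to 1560 in TKO_48h, 1440 to 1670 in TKO_96h and 1180 to 1260 in WT_40h. Pluripotency genes make up most of that sum, and single markers on the list are given beside several of the comparisons. Markers of gonadal soma, the tissue that surrounds germ cells in the embryo, summed to 11.3 to 27.3 CPM over all libraries.

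Levels of different genes can be set side by side in TPM, an abundance scaled to the library and corrected for transcript length. Tex19.1 and Dazl had the highest levels of the 10 genes, at a mean of 23.8 and 23.4 TPM over the 12 libraries, above 87.5% and 87.2% of 21897 protein-coding genes. Asz1 (8.67 TPM), Gtsf1 (7.14), Ddx4 (7.12), Mael (6.72), Tdrkh (6.16), Mov10l1 (6.03) and Piwil2 (4.27) formed a middle group. Neighbours in that order from Asz1 to Mov10l1 overlapped in their ranges over libraries. Tdrd1 was lowest, at 0.418 TPM and 302 counts over all libraries together, with 0 counts in TKO_48h replicate 1. For the Piwi cofactor gene Gtsf1 the counts were few as well, from 18 to 76 per library, so that the intervals around the fold changes of Tdrd1 and Gtsf1 are wide. In each library 3 short transcripts held 42.3 to 65.9% of all TPM, so levels in TPM are compared between genes and changes between groups are given on counts.

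**Figure D1:**
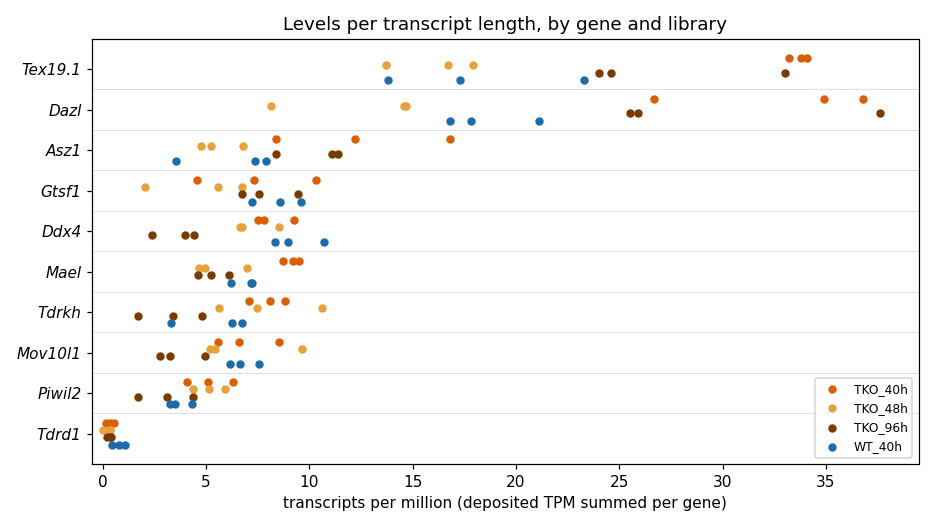
Level of each gene in TPM (deposited values summed per gene, horizontal axis, linear), 1 point per library, with the groups TKO_40h, TKO_48h, TKO_96h and WT_40h from top to bottom within each gene. Tex19.1 and Dazl average 23.8 and 23.4 TPM over the 12 libraries and Tdrd1 0.418 TPM.

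At the same priming time, 40 h, the genotypes could be compared directly. Dazl and Tex19.1 rose and the other 8 did not pass. Dazl, a germ cell translation regulator (chromosome 17, 50279395 to 50293636, minus strand, GRCm38), was at 114, 114 and 82.9 CPM in TKO_40h, against 62, 58.6 and 67 CPM in WT_40h. Every TKO_40h library lay above every WT_40h library, with replicate 3 the lowest of TKO_40h. The log2 fold change was 0.73 ± 0.14 (SE, n = 3 per group, adjusted p = 0.0068, edgeR's quasi-likelihood test). Tex19.1 (chromosome 11, 121146143 to 121148319, plus strand), whose protein limits the mobility of LINE-1 retrotransposons, was at 77.8, 84.4 and 78.4 CPM in TKO_40h, against 44.5, 37.4 and 47.8 CPM in WT_40h. The groups did not overlap here either, and the log2 fold change was 0.89 ± 0.12 (adjusted p = 0.00034). Both genes thus had transcripts in WT_40h as well, at 62.5 ± 4.23 CPM for Dazl and 43.2 ± 5.33 CPM for Tex19.1 (mean ± SD, n = 3), and the difference was under 2-fold (1.65-fold and 1.85-fold).

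The 2 genes called are 2 of 10, both higher, where 1.62% of 16178 tested genes were called higher, 1.48% lower and 3.1% in either direction. The median log2 fold change was 0.3 over the 10 genes and -0.001 over all genes tested. With an offset for effective transcript length the values stayed near 0.75 for Dazl and 0.82 for Tex19.1, and both calls ended (adjusted p = 0.13 and 0.053). Reads of Tex19.1 are largely its own: 6.31% of its 31-base words also occur in its neighbour Tex19.2, which had at most 3.87 CPM in any library.

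Among the 8 genes that did not pass, Asz1, the mitochondrial anchor of the pathway, came closest. Asz1 (chromosome 6, 18050964 to 18109061) was at 24.9, 19.4 and 21.3 CPM in TKO_40h, against 16.8, 15.2 and 8.71 CPM in WT_40h (log2 fold change 0.68 ± 0.25, adjusted p = 0.17). The groups did not overlap, but the WT_40h libraries differed among themselves by about as much as the groups. Ddx4 was at -0.27 with a 95% interval of -0.65 to 0.11, Mov10l1 at -0.15 (-0.51 to 0.21), Piwil2 at 0.27 (-0.13 to 0.67), Mael at 0.33 (-0.15 to 0.81) and Tdrkh at 0.4 (-0.23 to 1.03). A 2-fold difference lies outside the intervals of Ddx4, Mov10l1, Piwil2 and Mael, while the intervals of Tdrkh, Tdrd1 (-2.75 to 0.35) and Gtsf1 (-1.14 to 0.54) include one. Markers of 2-cell-like cells, a rare state of embryonic stem cells, did not overlap in summed level between the genotypes. Their sum over 6 genes was 41.8 to 59.6 CPM in TKO_40h, with all 6 counted in each library. In WT_40h it was 13 to 34.7 CPM, with 3 of 6 counted in each. Of the 4 that could be tested, edgeR and DESeq2 called 0. In the other groups this sum was 4.83 to 18.6 CPM in TKO_48h and 4.23 to 23.8 CPM in TKO_96h, with Tcstv1, Tcstv3 and Zfp352 at 0 in TKO_96h. Other sums that did not overlap and were higher in TKO_40h were those of mesoderm markers (27.1 to 39 CPM in TKO_40h against 15.1 to 16.8 CPM in WT_40h), endoderm markers (28.6 to 32.2 against 17.6 to 23.1 CPM), trophoblast markers (36.9 to 47.7 against 23.3 to 34.6 CPM) and naive stem cell markers (1550 to 1620 against 1340 to 1530 CPM). Both tools called 0 of the 6 endoderm and 0 of the 5 trophoblast markers tested. Formative or primed epiblast markers, among them Dnmt3b, did not overlap either and were lower in TKO_40h (325 to 370 against 429 to 503 CPM). Without Dnmt3b their sums overlapped. Single markers called higher in TKO_40h were Hand1 of the mesoderm list, Cdh5 and Sox18 of the endothelium list and Zfp42 of the naive list. Fgf5 and Pou3f1 of the formative or primed epiblast list and the germ cell marker Dppa3 (51.5 ± 5.44 against 16.7 ± 3.81 CPM) were also called higher. Kit, a receptor of germ cells, was called lower (60.9 ± 5.27 against 104 ± 23.2 CPM), as was the targeted gene Dnmt3b. The part of these markers in the difference of Dazl and Tex19.1 was not tested. In bulk RNA, more cells with a transcript and more transcript per cell cannot be told apart.

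**Figure D2:**
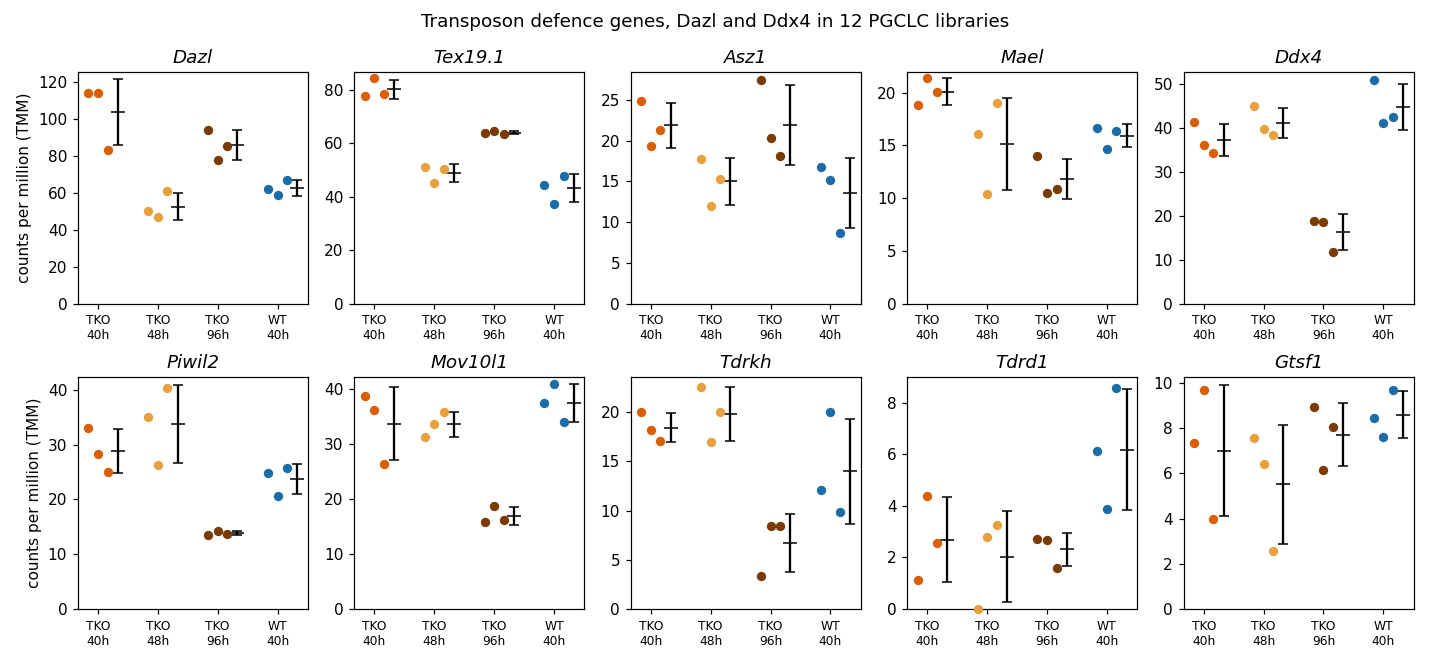
CPM on TMM library sizes (vertical axes, linear from 0) for each gene, 1 point per library, with the mean ± SD of 3 replicates as a bar beside the points. Dazl and Tex19.1 lie higher in TKO_40h and TKO_96h than in TKO_48h and WT_40h, while Ddx4, Piwil2, Mov10l1 and Tdrkh are lowest in TKO_96h.

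Within TKO, cultures primed for 48 h were set against those primed for 40 h. The same 2 genes, Dazl and Tex19.1, were called, now lower: 0 of 10 higher and 2 lower, where 2.57% of all genes were called higher, 2.92% lower and 5.49% in either direction. Dazl was at 50.2, 46.7 and 60.9 CPM in TKO_48h, against 114, 114 and 82.9 CPM in TKO_40h, a log2 fold change of -0.97 ± 0.14 (adjusted p = 0.00049). Tex19.1 was at 51.2, 45.1 and 50.6 CPM in TKO_48h, against 77.8, 84.4 and 78.4 CPM in TKO_40h, a log2 fold change of -0.71 ± 0.12 (adjusted p = 0.002). The TKO_48h libraries lay below every TKO_40h library for both genes. Against WT_40h, Dazl in TKO_48h was at -0.25 with an interval of -0.54 to 0.04 (adjusted p = 0.35) and Tex19.1 at 0.18 with an interval of -0.07 to 0.43 (adjusted p = 0.47), and 0 of the 10 genes were called there, where 2.84% of all genes were called higher, 2.82% lower and 5.66% in either direction. At an unadjusted p below 0.05, 1 of the 10 genes, Piwil2, passed in that comparison, and DESeq2 called 0. TKO_48h and WT_40h differ in genotype and in priming time, so this comparison gives the order of levels only.

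Without TKO_48h replicate 1, the library that stood apart, Dazl was at -0.94 (adjusted p = 0.0025) and Tex19.1 at -0.75 (adjusted p = 0.0055) between TKO_48h and TKO_40h. The call of Tex19.1 ended with the length offset (-0.75, adjusted p = 0.052). Asz1, at 17.7, 12 and 15.3 CPM in TKO_48h against 24.9, 19.4 and 21.3 CPM in TKO_40h, was at -0.54 ± 0.25 and did not pass (adjusted p = 0.24). For Ddx4 (0.14), Piwil2 (0.23) and Mov10l1 (0 to 2 decimals) the upper and lower 95% limits stayed within -0.36 to 0.63 on the log2 scale. Markers that were lower in the same comparison were those of 2-cell-like cells, at 4.83 to 18.6 CPM in TKO_48h, with 3 of 6 counted in each library, against 41.8 to 59.6 CPM in TKO_40h, with Zscan4c and Usp17lc called lower. The 7 formative or primed epiblast markers summed to 219 to 293 CPM in TKO_48h against 325 to 370 CPM in TKO_40h, and 6 trophoblast markers to 19.1 to 34.9 against 36.9 to 47.7 CPM. Of the 5 trophoblast markers tested, edgeR called 0 and DESeq2 2. Higher in TKO_48h, without overlap, were the sums of endothelium markers (87.4 to 95.2 against 72.2 to 86.3 CPM) and PGC markers (1320 to 1560 against 1220 to 1290 CPM). Both tools called 0 of the 5 endothelium markers tested. Among the 11 PGC markers edgeR called 1, Kit, which was higher (89.9 ± 8.24 against 60.9 ± 5.27 CPM), and DESeq2 called 3. Of the 11 log2 fold changes 9 were positive, with a median of 0.44. Prdm1 was at 34.4 ± 5.84 against 20.9 ± 1.4 CPM and Tfap2c at 68.4 ± 5.16 against 48.6 ± 5.48 CPM. The part of these markers in the lower values of Dazl and Tex19.1 was not tested. This comparison and the one between genotypes share the TKO_40h libraries, so the lower values here and the higher values there are not independent of each other.

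The comparison of TKO_96h with TKO_40h asks what long priming changed. Here another set of genes moved: Ddx4, Piwil2, Mov10l1, Tdrkh and Mael fell, 5 of 10 lower and 0 higher, where 7.2% of all genes were called lower, 4.94% higher and 12.1% in either direction. The median log2 fold change was -0.55 over the 10 genes and 0 over all genes. Ddx4, the mouse relative of the fly gene vasa (chromosome 13, 112598333 to 112652475, minus strand), was at 18.9, 18.5 and 11.7 CPM in TKO_96h, against 41.3, 36 and 34.2 CPM in TKO_40h. The lowest TKO_40h library was well above the highest TKO_96h library. The log2 fold change was -1.19 ± 0.18 (adjusted p = 0.00023). Piwil2, which encodes the Piwi protein MILI (chromosome 14, 70372477 to 70429383, minus strand), was at 13.6, 14.3 and 13.7 CPM in TKO_96h, against 33, 28.3 and 25 CPM in TKO_40h (-1.05 ± 0.2, adjusted p = 0.0013). Its 3 TKO_96h libraries were nearly equal.

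Mov10l1, the helicase gene at the entry of the pathway (chromosome 15, 88982909 to 89055152, plus strand), was at 15.9, 18.8 and 16.2 CPM in TKO_96h, against 38.7, 36.2 and 26.3 CPM in TKO_40h (-0.99 ± 0.18, adjusted p = 0.00094). Tdrkh, whose protein joins Piwi proteins to the trimming enzyme (chromosome 3, 94413273 to 94434668, plus strand), was at 3.32, 8.4 and 8.44 CPM in TKO_96h, against 20, 18.2 and 17.1 CPM in TKO_40h (-1.45 ± 0.32, adjusted p = 0.0044). Replicate 1 was the low one of TKO_96h, and without it Tdrkh was at -1.13 (adjusted p = 0.022). Some of the sequence of Tdrkh is shared: 35.46% of its 31-base words also occur, on the other strand, in Oaz3, which overlaps its exons and had at most 2.94 CPM in any library. Whether the authors' counting used strand is not given in the sources used here, so the counts of Tdrkh are uncertain in the shared stretch.

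Mael, a nuage protein gene (chromosome 1, 166201201 to 166238747), was at 14, 10.5 and 10.9 CPM in TKO_96h, against 18.8, 21.4 and 20.1 CPM in TKO_40h (-0.77 ± 0.24, adjusted p = 0.039). That call lay close to the threshold. It ended without TKO_40h replicate 1, 2 or 3 (adjusted p = 0.072, 0.12 and 0.1), without TKO_96h replicate 2 or 3 (0.13 and 0.11), without WT_40h replicate 1 or 3 (0.055 and 0.054), with no filter on low counts (0.055) and with the length offset (0.12). With the offset the calls of Piwil2, Mov10l1 and Tdrkh ended too (adjusted p = 0.17, 0.073 and 0.055, at -0.77, -0.92 and -1.29), and Ddx4 was called (adjusted p = 0.0038). Dazl, at 94.1, 78 and 85.3 CPM in TKO_96h against 114, 114 and 82.9 CPM in TKO_40h, was at -0.27 ± 0.14 and did not pass (adjusted p = 0.23). Tex19.1, at 63.7, 64.7 and 63.6 CPM in TKO_96h against 77.8, 84.4 and 78.4 CPM in TKO_40h, did not overlap between the groups and did not pass either (-0.33 ± 0.12, adjusted p = 0.088). Asz1 was at 0 to 2 decimals with an interval of -0.52 to 0.52. Sums over markers of other cell types did not overlap in the same comparison: naive stem cell markers summed to 1830 to 2090 CPM in TKO_96h against 1550 to 1620 CPM in TKO_40h, 7 mesoderm markers to 8.57 to 16 CPM (T at 0) against 27.1 to 39 CPM, and 7 endoderm markers to 10.4 to 21.6 CPM (Afp and Apoa1 at 0) against 28.6 to 32.2 CPM. The same held for 2-cell-like (4.23 to 23.8 against 41.8 to 59.6 CPM) and trophoblast markers (28.6 to 32.8 against 36.9 to 47.7 CPM). It also held for gonadal soma (11.3 to 14.6 against 17.9 to 27.3 CPM) and formative or primed epiblast markers (182 to 219 against 325 to 370 CPM). Of the 4 gonadal soma markers tested, edgeR called 0 and DESeq2 1. Of the 11 PGC markers, 3 were called lower and 2 higher, with 7 positive log2 fold changes and a median of 0.32. Prdm1, a factor that specifies germ cells, was at 10.4 ± 2.91 CPM in TKO_96h against 20.9 ± 1.4 CPM in TKO_40h (-1.01 ± 0.23, adjusted p = 0.0067). Tfap2c, its partner, was at 28.1 ± 6.78 against 48.6 ± 5.48 CPM (-0.79 ± 0.17, adjusted p = 0.0043), and Dppa3 at 18.5 ± 2.12 against 51.5 ± 5.44 CPM (-1.47 ± 0.2, adjusted p = 6.5e-05). These 3 were the PGC markers called lower, and Pou5f1 and Sox2, which pluripotent stem cells share, were called higher (0.6 and 0.31). Kit, Itgb3, Prdm14, Dnd1 and Nanos3 had higher means in TKO_96h and were not called. Kit was at 80.8 ± 9.9 against 60.9 ± 5.27 CPM and Itgb3 at 26 ± 6.39 against 17.2 ± 1.62 CPM. The part of these markers in the lower values of Ddx4, Piwil2, Mov10l1, Tdrkh and Mael was not tested.

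**Figure D3:**
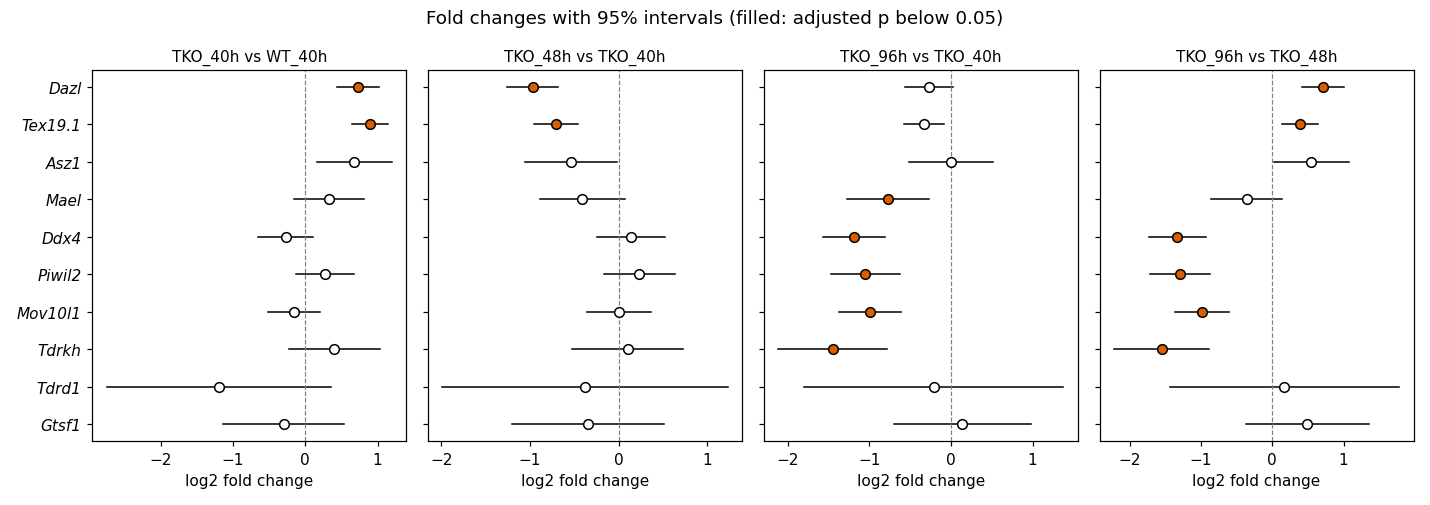
Log2 fold change (horizontal axis, first group over second) of the 10 genes in 4 comparisons, with 95% intervals from the edgeR fit as lines; filled points have an adjusted p below 0.05 over all 16178 genes. Dazl and Tex19.1 are filled at 0.73 and 0.89 in TKO_40h over WT_40h, and Ddx4, Piwil2, Mov10l1 and Tdrkh at -1.33, -1.29, -0.99 and -1.55 in TKO_96h over TKO_48h.

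The comparison of TKO_96h with TKO_48h put both sets of genes in 1 contrast: 2 of 10 were higher and 4 lower, where 8.82% of genes were called higher, 10.7% lower and 19.5% in either direction. Dazl was higher by 0.71 ± 0.14 (adjusted p = 0.0015), with 94.1, 78 and 85.3 CPM in TKO_96h against 50.2, 46.7 and 60.9 CPM in TKO_48h. Tex19.1 was higher by 0.39 ± 0.12 (adjusted p = 0.033), with 63.7, 64.7 and 63.6 CPM in TKO_96h against 51.2, 45.1 and 50.6 CPM in TKO_48h. The libraries of the 2 groups did not overlap for either gene. The call of Tex19.1 ended without TKO_48h replicate 2 or 3 (adjusted p = 0.098 and 0.068), without TKO_96h replicate 1, 2 or 3 (0.071, 0.08 and 0.06), with no filter on low counts (0.065), in a fit on the 6 libraries alone (0.081) and with the length offset (0.15). Ddx4 fell by 1.33 on the log2 scale (SE 0.19, adjusted p = 4.4e-05), with 44.8, 39.7 and 38.4 CPM in its TKO_48h libraries, and Piwil2 by 1.29 (SE 0.2, adjusted p = 0.00012), with 35, 26.2 and 40.3 CPM there. Mov10l1 fell by 0.99 (SE 0.18, adjusted p = 0.00061) and Tdrkh by 1.55 (SE 0.32, adjusted p = 0.0017). Without TKO_96h replicate 1 the changes of Ddx4, Piwil2, Mov10l1 and Tdrkh were -1.44, -1.28, -0.95 and -1.24, and without TKO_48h replicate 1 they were -1.25, -1.26, -1.03 and -1.45, all 4 still called. Prdm1, Tfap2c and Dppa3 were lower in TKO_96h than in TKO_48h too (-1.73, -1.28 and -1.35 on the log2 scale, with adjusted p of 2.9e-05, 2.6e-05 and 9.7e-05). Pou5f1 was called higher, and the median log2 fold change of the 11 PGC markers was -0.15. Sums of other lists were lower in TKO_96h without overlap. These were mesoderm (8.57 to 16 against 32.1 to 45.9 CPM), endoderm (10.4 to 21.6 against 27.6 to 35 CPM) and gonadal soma markers (11.3 to 14.6 against 15.5 to 23.9 CPM). The 6 formative or primed epiblast markers without Dnmt3b were lower too (154 to 184 against 198 to 273 CPM). The part of all these markers in the changes of the 10 genes was not tested.

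Against WT_40h, TKO_96h differs in genotype and in priming time, and the 2 cannot be told apart. Dazl (0.46 ± 0.14, adjusted p = 0.027) and Tex19.1 (0.57 ± 0.12, adjusted p = 0.0031) were higher in TKO_96h, and Ddx4 (-1.45 ± 0.18, adjusted p = 1.7e-05), Mov10l1 (-1.14 ± 0.18, adjusted p = 0.00016), Tdrkh (-1.05 ± 0.32, adjusted p = 0.025) and Piwil2 (-0.78 ± 0.2, adjusted p = 0.0089) lower, 6 of 10 where 9.1% of all genes were called higher, 10.1% lower and 19.2% in either direction. The call of Dazl ended without WT_40h replicate 1 or 2 (adjusted p = 0.071 and 0.1), without TKO_96h replicate 1 or 3 (0.1 and 0.054) and with the length offset (0.078). That of Tdrkh ended without WT_40h replicate 2 (-0.7, adjusted p = 0.18) or TKO_96h replicate 1 (-0.72, 0.12), in a fit on the 6 libraries alone (0.051) and with the offset (0.19). With the offset Piwil2 was at -0.38 (adjusted p = 0.5) and Tex19.1 at 0.51 (0.09), and neither was called. Asz1 was at 0.69 ± 0.25 (adjusted p = 0.063), and was called with a replicate block (adjusted p = 0.039), without a filter on low counts (0.05 after rounding) and without WT_40h replicate 1 (0.048). The 7 markers of formative or primed epiblast, the state that priming produces, were counted in every library and summed to 325 to 370 CPM in TKO_40h, 219 to 293 in TKO_48h, 182 to 219 in TKO_96h and 429 to 503 in WT_40h. That list holds Dnmt3b, a gene targeted in TKO, and the other 6 markers summed to 286 to 314 CPM in TKO_40h, 198 to 273 in TKO_48h, 154 to 184 in TKO_96h and 272 to 288 in WT_40h, so that TKO_40h and WT_40h overlap without it. Fgf5 and Pou3f1 on that list were called higher in TKO_40h than in WT_40h (1.3 and 0.94). Of the 11 PGC markers, Prdm1 and Tfap2c were called lower in TKO_96h than in WT_40h (-1.49 and -0.73). Itgb3 (26 ± 6.39 against 9.09 ± 3.26 CPM) and Pou5f1 (794 ± 107 against 494 ± 9.63 CPM) were called higher. The median log2 fold change of the 11 was 0.12. The part of all these markers in the lower values of TKO_96h was not tested.

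In order of level in CPM, Dazl and Tex19.1 were highest in TKO_40h, followed by TKO_96h. Below these, Tex19.1 was at 48.9 ± 3.37 CPM in TKO_48h and 43.2 ± 5.33 CPM in WT_40h, and Dazl, in the opposite order, at 52.6 ± 7.44 CPM in TKO_48h and 62.5 ± 4.23 CPM in WT_40h. Of the neighbours in these orders, TKO_40h and TKO_96h were not called apart for either gene, nor were TKO_48h and WT_40h. Ddx4 was at 37.2 ± 3.7 CPM in TKO_40h, 41 ± 3.42 in TKO_48h, 16.4 ± 4.01 in TKO_96h and 44.7 ± 5.3 in WT_40h, and Mov10l1 at 33.7 ± 6.55, 33.6 ± 2.34, 16.9 ± 1.58 and 37.4 ± 3.43 CPM in the same groups. Piwil2 was at 28.8 ± 4.03 CPM in TKO_40h, 33.9 ± 7.14 in TKO_48h, 13.9 ± 0.366 in TKO_96h and 23.8 ± 2.7 in WT_40h, and Tdrkh at 18.5 ± 1.48, 19.8 ± 2.77, 6.72 ± 2.94 and 14 ± 5.35 CPM. For all 4 genes TKO_96h was lowest, and the levels of the other 3 groups were not called apart. With TKO_48h replicate 2 left out, Piwil2 was called between TKO_48h and WT_40h (0.66, adjusted p = 0.038, against 0.51 ± 0.19 and 0.13 with all libraries). Tdrd1, the gene for a tudor partner of Piwi proteins, had 1.11, 4.39 and 2.56 CPM in TKO_40h, 0, 2.81 and 3.27 in TKO_48h, 2.72, 2.66 and 1.58 in TKO_96h and 6.12, 3.87 and 8.57 in WT_40h. It was not called in any of the 6 comparisons (smallest adjusted p 0.21), and neither was Gtsf1 (smallest 0.41).

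The estimated counts of each gene were divided among its annotated transcripts. Ddx4-202 was given 99.9% of the counts of Ddx4, Tex19.1-201 99%, Mael-201 96.5%, Piwil2-201 92.5% and Asz1-201 87.9%, all of them protein coding. Of their 31-base words 9.4%, 87.1%, 4.5%, 80.3% and 4.5% are found in no other transcript of the same gene. The shares of Ddx4-202, Mael-201 and Asz1-201 are thus less certain than those of Tex19.1-201 and Piwil2-201. Dazl was divided between the protein-coding Dazl-201, with 74.6%, and Dazl-203, annotated as a retained intron, with 20.8%. The share of Dazl-203 was 18.7 to 26.3% in TKO_40h, 6.1 to 25% in TKO_48h, 19.1 to 25.3% in TKO_96h and 14.4 to 23.7% in WT_40h, with the lowest value in 1 library of TKO_48h and wide overlap between groups. The 31-base words of Dazl-203 are to 44.3% found in no other transcript of Dazl, so this share can be told from the rest. Of the words of Dazl-201 only 1.3% are its own, so its share is less certain. For Mov10l1, Mov10l1-203 was given 58% of the counts and Mov10l1-201 35.1%, but 0% and 0.1% of their words are their own, so the division between them cannot be read. The same holds for Tdrd1-201 and Tdrd1-203 (0.6 and 1.1%). Tdrkh-208 was given 53.3% of the counts of Tdrkh, Tdrkh-202, the longest of its annotated forms, 20.8% and Tdrkh-207 18.7%. Of their words 6.7%, 56.8% and 0% are their own, so the division of Tdrkh is uncertain. The share of Tdrkh-208 ranged from 29.6% in a WT_40h library to 84.2% in a TKO_96h library.

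The other genes of the piRNA pathway were taken from a list of 26, of which 22 could be tested. Between TKO_40h and WT_40h, 0 of 22 were called by edgeR or DESeq2, 1 had an unadjusted p below 0.05, and the median log2 fold change was 0.1, where 3.1% of all genes were called. Between TKO_96h and TKO_40h, 1 rose and 6 fell, where 4.94% of all genes were called higher and 7.2% lower. The median was -0.07, and that of all genes 0. Tdrd12 and Tdrd7, genes for tudor proteins of the pathway, fell most among them, to 3.42 ± 0.0894 CPM in TKO_96h against 13.7 ± 3.18 CPM in TKO_40h for Tdrd12 (log2 fold change -2 ± 0.31, adjusted p = 0.00023) and to 3.13 ± 0.283 against 10.7 ± 1.95 CPM for Tdrd7 (-1.77 ± 0.28, adjusted p = 0.00032). Tdrd5, another tudor gene, Tex15, which takes part in piRNA-directed DNA methylation in mouse, Gpat2, a mitochondrial partner of MILI, and Rnf17, a tudor and RING finger gene, fell by 1.45, 1.41, 1.02 and 0.43 on the log2 scale.

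The one that rose was Morc1, a repressor of transposons in mouse male germ cells, at 189 ± 7.02 CPM in TKO_96h against 109 ± 14.2 CPM in TKO_40h (0.79 ± 0.12, adjusted p = 0.00012). Between TKO_48h and TKO_40h Tex15 alone was called, at -0.77 ± 0.19 (adjusted p = 0.023), 1 of 22 where 5.49% of all genes were called. Between TKO_96h and TKO_48h, 1 of 22 rose and 7 fell (8.82% and 10.7% of all genes), and between TKO_96h and WT_40h 2 rose, Morc1 and Prmt5, and 6 fell (9.1% and 10.1% of all genes). Between TKO_48h and WT_40h edgeR called 0 (5.66% of all genes) and DESeq2 2, and 8 had an unadjusted p below 0.05. Snd1, a tudor nuclease gene (121 TPM), and Prmt5, whose protein makes the methylated arginines that tudor proteins bind (40.3 TPM), had the highest levels of the list, and Nanos2, a gene of fetal male germ cells, had 0 counts in all 12 libraries. Nuclear Piwil4 and the later acting Piwil1 had 1.13 and 0.565 TPM.

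**Figure D4:**
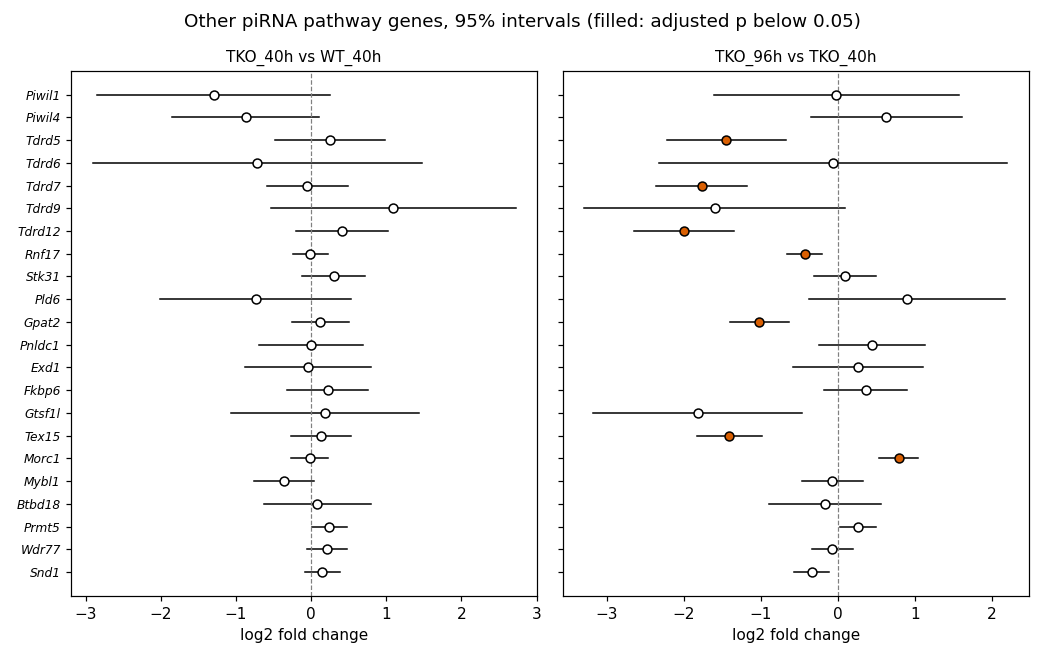
Log2 fold change (horizontal axis, first group over second) of the 22 tested genes of the wider piRNA pathway in 2 comparisons, with 95% intervals as lines; filled points have an adjusted p below 0.05. No point is filled in TKO_40h over WT_40h, and 7 are filled in TKO_96h over TKO_40h, 6 of them below 0.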

How the data were processed

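RNA from 12 mouse PGCLC cultures was isolated with Trizol, freed of DNA with DNase and made into stranded total RNA libraries (SMARTer), per the labels. Trim Galore 0.6.2, kallisto and the builds GRCm38 and mm10 are named in the submitters' processing notes. Neither the kallisto version nor its transcript set is given in the sources used here. For every transcript the authors deposited estimated counts, with no scaling to depth, and TPM, which the authors' kallisto run scaled by effective length and depth.

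By Ensembl ID without version, 116728 of 119414 transcripts (97.8%) were found in GENCODE M21, and the rest were left out. Counts of a gene's transcripts were added and the sum rounded, and TPM were added likewise. After filterByExpr by group (minimum count 10, minimum total 15), 16178 genes were tested with edgeR 4.0.16 in R 4.3.3. The quasi-likelihood model held the 12 libraries in 4 groups, with TMM factors of 0.927 to 1.063. Called means a two-sided p below 0.05 after Benjamini-Hochberg adjustment over the 16178 genes. The SE of a log2 fold change is its size over the root of the F statistic. CPM are on TMM library sizes. Intervals cover the spread between replicates labelled as biological, and reads carry no molecular identifiers.

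Members and lists were chosen with earlier results of these data known. By rule, the text names all 10 genes, up to 4 called genes of each list per comparison from the smallest adjusted p on and its 2 highest in TPM, and the 3 genes of most similar pattern (1 of those is not reported here); the wider piRNA list names all called between TKO_96h and TKO_40h, and Nanos2, Piwil1 and Piwil4 were chosen after their values were seen. Same-numbered libraries did not deviate together (correlations -0.057 to 0.044 over 18 pairs), and so the main model has no pairing. Alternatives were RLE factors, DESeq2 1.42.0, no filter, a replicate block, a length offset, only the groups compared, and each library left out. Python 3.11.15, pandas 2.3.3 and matplotlib 3.10.9 were used for joins and plots.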

Additional observations from a re-analysis of the deposited data

How the results depend on the processing

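Of 1080 recomputed fold changes of the 10 genes, 1016 kept their direction and their side of the threshold, 34 calls ended, 4 were gained and 26 values, none of them called, changed sign. Ended and gained calls of named genes stand beside those genes.

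Genes called between TKO_40h and WT_40h numbered 501, against 780 with DESeq2, 787 without the filter, 77 with the length offset and 1279 in a fit of those groups alone. The offset left 203 (of 888) between TKO_48h and TKO_40h, 830 (of 1965) between TKO_96h and TKO_40h, 1638 (of 3157) between TKO_96h and TKO_48h, 238 (of 916) between TKO_48h and WT_40h and 1468 (of 3099) between TKO_96h and WT_40h; a fit of TKO_48h and WT_40h alone called 586. Of the 10 genes the offset left 0, 1, 1, 5, 0 and 2 called in these 6 comparisons, against 2, 2, 5, 6, 0 and 6. The cause was not tested. With each library left out, 181 to 667, 324 to 1107, 1210 to 2270, 2344 to 2991, 396 to 1540 and 2084 to 3447 genes were called, and 2, 2, 4 to 5, 5 to 6, 0 to 1 and 4 to 6 of the 10.

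Sign changes concerned values near 0 or few counts. Mov10l1 between TKO_48h and TKO_40h was at 0.00 with DESeq2 and in a fit of those groups alone, 0.01 with the replicate block, 0.31 with the offset and -0.15 to 0.11 with a library left out. Between TKO_48h and WT_40h it was at 0.25 with the offset, and between TKO_40h and WT_40h at -0.26 to 0.01 with a library left out. Asz1 between TKO_96h and TKO_40h was at -0.01 with the block, -0.26 with the offset and -0.19 to 0.13 with a library left out, and between TKO_48h and WT_40h at -0.08 to 0.34. With a library left out, Tdrd1 ranged over -0.87 to 0.17 (TKO_48h against TKO_40h), -0.57 to 0.33 (TKO_96h against TKO_40h) and -0.38 to 0.66 (TKO_96h against TKO_48h), Gtsf1 over -0.63 to 0.01 and -0.14 to 0.46 in the first pair of these, and Mael over -0.25 to 0.14 (TKO_48h against WT_40h).

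The replicate block called 520, 903, 2022, 3175, 1000 and 3145 genes and 2, 2, 5, 6, 0 and 7 of the 10; replicate numbers did not pair libraries (correlations -0.057 to 0.044), and it changed the call of Asz1 alone. Low counts limit Tdrd1 and Gtsf1, and 3 libraries per group limit all intervals.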

Other observations

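Genes that silence transposons on chromatin, outside the piRNA pathway, were examined on the same scale. Of 16 such genes, all tested, edgeR called 0 and DESeq2 2 between TKO_40h and WT_40h, with 4 at an unadjusted p below 0.05, where edgeR called 3.1% of all genes. Between TKO_48h and TKO_40h 0 rose and 4 fell, where 2.57% and 2.92% of all genes did, with the chromatin remodeller gene Hells at 469 ± 26.3 CPM in TKO_48h against 758 ± 17.8 CPM in TKO_40h (log2 fold change -0.69 ± 0.09, adjusted p = 0.00017), followed by Atf7ip, a partner of the methyltransferase SETDB1 (-0.66), Atrx (-0.53) and Setdb1 (-0.38). Between TKO_96h and TKO_48h 8 rose and 0 fell, where 8.82% and 10.7% of all genes did, led by Hells (0.77 ± 0.09, adjusted p = 5.3e-06), Daxx, a histone chaperone gene (0.94 ± 0.12, adjusted p = 1.3e-05), Atf7ip (0.86 ± 0.11) and Uhrf1 (0.5 ± 0.1). Between TKO_96h and TKO_40h 2 rose, Daxx (0.73 ± 0.12) and Uhrf1 (0.49 ± 0.1), and 0 fell, where 4.94% and 7.2% of all genes did. Against WT_40h, 3 rose and 0 fell in TKO_96h (9.1% and 10.1% of all genes), and 0 rose and 5 fell in TKO_48h (2.84% and 2.82%). By level, Trim28 (347 TPM) and Hells (201 TPM) stood highest on the list.

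Among 10 germ cell RNA regulators, Meioc, a meiosis gene, was lower in TKO_40h than in WT_40h (27.4 ± 4.78 against 46.4 ± 4.77 CPM, adjusted p = 0.037), and in TKO_96h it was at 9.96 ± 1.94 CPM. Lin28a and Lin28b, regulators of let-7 miRNAs, were lower in TKO_48h than in TKO_40h (-0.55 and -0.64, adjusted p = 0.0071 and 0.048). In all, 0 of the 10 rose and 1 fell between TKO_40h and WT_40h, 0 and 2 between TKO_48h and TKO_40h, 0 and 2 between TKO_96h and TKO_40h, and 1 and 2 between TKO_96h and TKO_48h. Over all genes 3.1%, 5.49%, 12.1% and 19.5% were called in these comparisons. Among 10 paralogs and relatives of the genes described, 0 rose and 2 fell between TKO_40h and WT_40h, 1 and 1 between TKO_48h and TKO_40h, and 1 and 2 between TKO_96h and TKO_48h, to be read against the same shares of all genes. Between TKO_96h and TKO_40h edgeR and DESeq2 called 0 of them, with 2 at an unadjusted p below 0.05. Mov10, the somatic relative of Mov10l1, was at 199 ± 5.66 CPM in TKO_48h against 111 ± 5.11 CPM in TKO_40h (0.84 ± 0.11, adjusted p = 0.00017), where Mov10l1 was not called. The argonaute genes Ago1 and Ago2, relatives of Piwil2, were lower in TKO_40h than in WT_40h by -0.46 ± 0.12 and -0.51 ± 0.11 (adjusted p = 0.038 and 0.017).

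The genes whose pattern over the 12 libraries came closest to that of a called gene were found by the root mean square difference of log2 CPM, each centred on its own mean, over 10827 genes of at least 5 CPM. Closest to Dazl were Rex2 (0.182), Hells (0.212) and Zfp981 (0.216), where the median gene lay at 0.495. Closest to Tex19.1 were Ercc4 (0.159), Cox10 (0.162) and Slc20a1 (0.184). Ddx4 was followed by Gulp1 (0.194), Atp10a (0.198) and Skil (0.198), Piwil2 by Sh3pxd2a (0.16), Acat1 (0.181) and Lrig1 (0.183), Mov10l1 by Rcor1 (0.154), Zmynd11 (0.174) and Zkscan17 (0.184), Mael by Klf6 (0.157) and Snrpn (0.167), and Tdrkh by Erap1 (0.239), Errfi1 (0.304) and Nuak2 (0.322). None of the 10 genes was among another's closest by construction, since they were left out of the search.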
